A study of Homo sapiens with 6 samples.

Results

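The Wnt signaling genes examined here are 47 genes taken by symbol from a table of 58174 genes: 10 Wnt ligands, the acyltransferase PORCN, 9 Frizzled receptors, the co-receptors LRP5 and LRP6, the Dishevelled, β-catenin and destruction-complex genes, the TCF/LEF factors, and the antagonists and feedback regulators of the pathway. All 47 symbols were found, each in 1 row. The mRNA-seq was made from KNS42, a cell line established from a pediatric glioblastoma (GBM), grown in medium with serum. Cells were transfected with a control siRNA (siC, n = 3 libraries) or with a pool of siRNAs against the RNA-binding protein Musashi1 (siMSI1, n = 3 libraries) and harvested 72 h later. Both groups thus share the cell line, the use of siRNA transfection and the time point. Whether the groups were transfected together is not given in the sources used here. The series uses 1 cell line and 1 siRNA pool, and the sources used here do not say whether the 3 libraries of a group came from separate cultures, so p-values measure the spread between these libraries, which may be technical.

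Wnt proteins are secreted, lipid-modified ligands. In the β-catenin branch, a ligand brings a Frizzled receptor and LRP5 or LRP6 together, Dishevelled is recruited, and a cytoplasmic destruction complex built on AXIN and APC no longer lets GSK3 mark β-catenin (CTNNB1) for degradation. β-catenin then enters the nucleus and acts with TCF/LEF factors on target genes, several of which encode inhibitors of the pathway itself. Other Wnt ligands act without β-catenin, through receptors such as ROR, RYK and PTK7 and through the planar cell polarity proteins. In the nervous system the pathway is known for its part in the growth and patterning of neural progenitors.

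The libraries held 13087025 to 18024080 reads on genes. MSI1 was at 61.9 to 66.9 FPKM in the siC libraries and 11.2 to 12.3 FPKM in the siMSI1 libraries, which is 18.5% of the siC mean. Of 9 neural and glial markers, VIM, SOX2 and NES were at 1035, 301 and 69.2 FPKM in siC on average, while S100B and OLIG2 had 0 reads in every library. Of the 7 tested, GFAP rose and FABP7, SOX9 and CD44 fell past the threshold described below (57.1% called, beside 11.0% of all tested genes). VIM, SOX2 and NES were also lower in siMSI1 without overlap but did not pass, with log2 fold changes of −0.26, −0.23 and −0.16. The 8 markers of other cell types, 0 of which reached the 0.5 FPKM filter described below, summed to 0.221 to 0.376 FPKM in siC and 0.528 to 0.867 FPKM in siMSI1, with RBFOX3 at 0 in all libraries and at most 22 reads for any of them in a library. Their part in the results was not tested. Of 8 interferon-response genes, 7 were tested and 1 (14.3%, beside 11.0% of all tested genes), OAS1, was higher past the threshold. OAS1 was called in 0 of the 6 fits that leave out 1 library. The groups did not overlap for 3 higher genes, OAS1 among them, and 2 lower genes (71.4%, beside 42.8% of all tested genes). Of the 2 lower genes, IFIT3 showed a log2 fold change of −0.45 (adjusted p = 0.031). The summed level of the 8 genes was 47.6 to 49.5 FPKM in siC and 46.4 to 55.2 FPKM in siMSI1. In bulk RNA, fewer cells in a given state and less RNA per cell cannot be told apart.

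Since 3 of the 4 genes called below fell and the start sites of these 3 were matched in RefSeq (GRCh38.p14), the 250 bases before each start are shown, 5′ to 3′ on the strand of the gene, with the GC box GGGCGG (either strand) in capitals. They lie at chr2:207769907-207770156 on the minus strand for FZD5, at chr7:91264183-91264432 on the plus strand for FZD1 and at chr10:97319021-97319270 on the plus strand for FRAT1.
FZD5: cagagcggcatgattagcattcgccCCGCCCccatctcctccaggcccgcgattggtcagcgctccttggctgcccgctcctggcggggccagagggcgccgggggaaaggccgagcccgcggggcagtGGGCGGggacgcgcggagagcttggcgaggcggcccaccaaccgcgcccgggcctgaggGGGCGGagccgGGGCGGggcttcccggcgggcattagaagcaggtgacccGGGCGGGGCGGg
FZD1: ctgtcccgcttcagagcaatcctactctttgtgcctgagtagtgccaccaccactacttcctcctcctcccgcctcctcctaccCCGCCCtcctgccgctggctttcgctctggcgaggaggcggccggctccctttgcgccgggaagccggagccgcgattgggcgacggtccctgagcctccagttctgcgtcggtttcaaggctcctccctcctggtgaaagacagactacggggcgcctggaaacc
FRAT1: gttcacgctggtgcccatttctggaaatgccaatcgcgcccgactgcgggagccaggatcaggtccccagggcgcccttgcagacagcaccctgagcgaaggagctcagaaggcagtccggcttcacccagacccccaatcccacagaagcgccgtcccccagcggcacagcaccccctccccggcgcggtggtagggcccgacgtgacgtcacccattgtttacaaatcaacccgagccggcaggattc
The FZD5 window held 6 GC boxes, the last pair overlapping, the FZD1 window held 1 and the FRAT1 window 0. TCF7, the called gene that rose, has windows that are not shown. That at chr5:134115363-134115612 held 1 GC box and that at chr5:134123368-134123617 held 0. The GC box was found in 42.6% of all 35116 RefSeq windows of this length and in 28 of the 41 windows that belong to the Wnt genes. Start windows were found for 32 of the 47 genes. The letters bound by TCF/LEF factors, CTTTGAT and CTTTGAA (either strand), were in none of the 3 windows shown above. They were in 5.94% of all windows and in 2 of the 41, those of SP5 (chr2:170715087-170715336, plus strand) and DKK1 (chr10:52314031-52314280, plus strand), which are shown with these letters in capitals because both genes are known targets of β-catenin and their levels are given below.
SP5: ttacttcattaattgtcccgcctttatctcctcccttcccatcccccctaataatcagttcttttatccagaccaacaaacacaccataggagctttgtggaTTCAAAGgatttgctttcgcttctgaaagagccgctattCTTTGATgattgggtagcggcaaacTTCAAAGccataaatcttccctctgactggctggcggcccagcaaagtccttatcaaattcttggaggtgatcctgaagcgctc
DKK1: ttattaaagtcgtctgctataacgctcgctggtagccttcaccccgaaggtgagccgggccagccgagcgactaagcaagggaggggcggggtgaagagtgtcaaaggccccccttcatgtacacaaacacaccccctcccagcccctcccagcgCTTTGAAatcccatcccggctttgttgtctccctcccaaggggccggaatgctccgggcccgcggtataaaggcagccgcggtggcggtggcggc
A match describes letters only. The windows of FZD3, DKK3, FZD7, WNT7B, LGR5, ZNRF3, LRP6, FZD10, SFRP1, NKD1, AXIN2, WNT11, FZD2, FZD6 and WNT10B were not analysed here.

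Values are FPKM, that is reads scaled by gene length and by library depth, as deposited. Comparisons of levels between genes, and shares of a summed level, rest on the 1 deposited length per gene, which need not match the transcripts present. Changes were tested with limma on log2(FPKM + 0.1) for the 15069 genes with a mean of at least 0.5 FPKM, Benjamini-Hochberg adjustment was made over these genes, and a gene was called changed at an adjusted p of at most 0.01, the threshold of the study. Fold changes are siMSI1 over siC on this log2 scale, which understates the change of low genes, and 95% intervals are for single genes.

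Upon MSI1 knockdown, FZD5, FZD1 and FRAT1 fell and TCF7 rose, and no other of the 47 genes passed the threshold. FZD5 and FZD1 encode receptors, FRAT1 a GSK3-binding protein that favours β-catenin, and TCF7 (TCF-1) a nuclear partner of β-catenin. Of the 47 genes, 34 were tested and 4 of them (11.8%) were called, where 11.0% of all tested genes were called. The share over all genes was 5.83% for lower and 5.15% for higher genes, and 13.1% for protein-coding genes in either direction. The 34 genes had a median log2 fold change of −0.02, beside 0.00 for all tested genes, and 18 of them were below 0. For 17 of the 34 (50%, 10 lower and 7 higher) the siC and siMSI1 values did not overlap, where this held for 42.8% of all tested genes. The share of Wnt genes called was thus close to that over all genes. The number of Wnt genes called was 1 without siC replicate 1, without siC replicate 2 or without siMSI1 replicate 1, 2 without siC replicate 3, 3 without siMSI1 replicate 2, and 4 without siMSI1 replicate 3. FZD5 alone was called in all 6 of these fits.

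**Figure D1:**
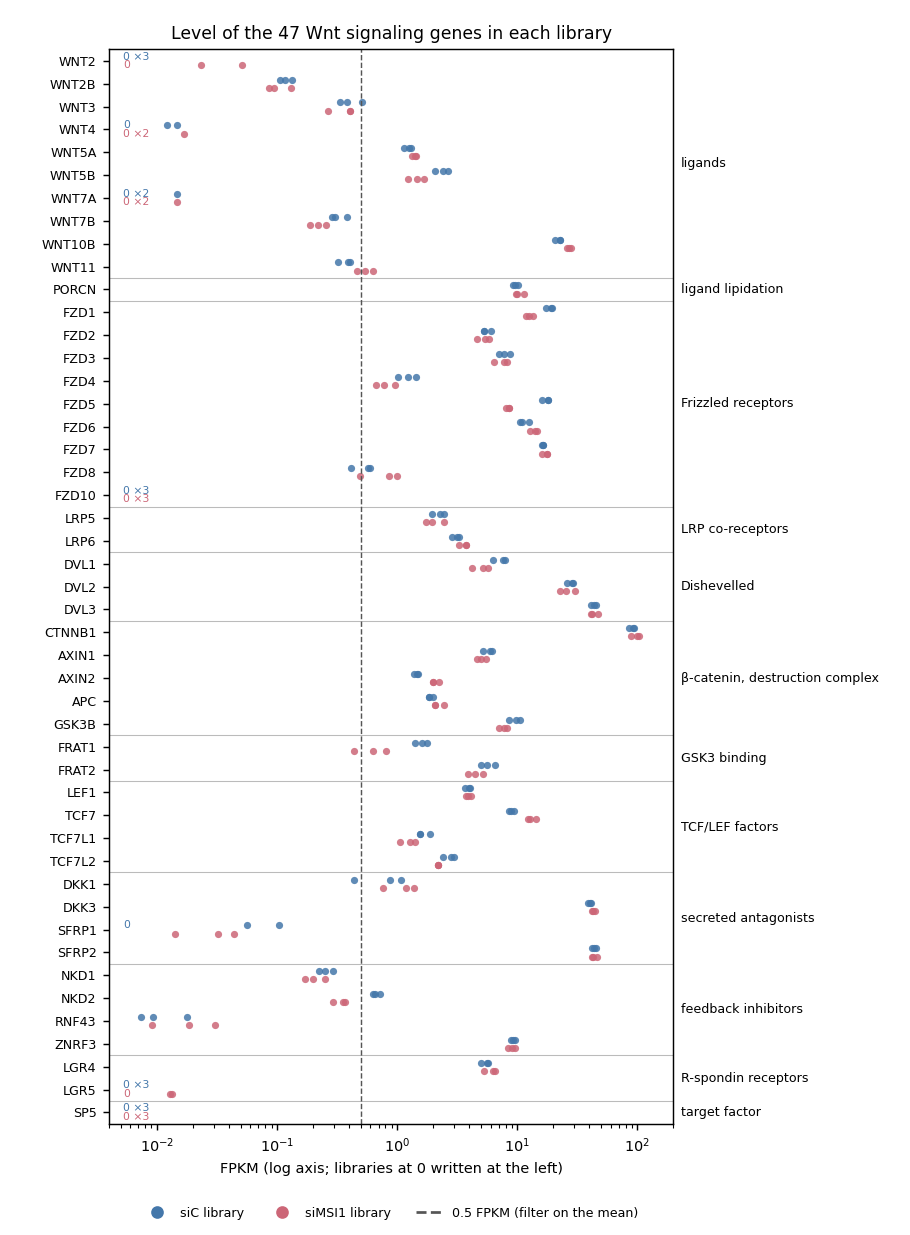
FPKM on a log axis for each of the 47 genes, grouped by role, with 1 point per library (siC blue, siMSI1 red), libraries at 0 written at the left edge, and the 0.5 FPKM filter as a dashed line. CTNNB1, at 86.0 to 104 FPKM, was the highest, and FZD10 and SP5 were at 0 in all 6 libraries.

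Of the ligands, WNT10B, a ligand known for β-catenin signaling, had by far the most mRNA. It was at 22.7, 20.6 and 22.6 FPKM in siC replicates 1 to 3 and at 26.0, 27.0 and 27.9 FPKM in siMSI1. Every siMSI1 library was above every siC library, and the log2 fold change of 0.30 (standard error, SE, 0.067) was not past the threshold (adjusted p = 0.017). Among all 19 human WNT genes, WNT10B took 65.5% ± 1.03 of the summed FPKM in siC and 71.6% ± 0.904 in siMSI1 (SD, n = 3 each). WNT1, outside the 47 genes and likewise a β-catenin ligand, came next in siC, at 5.20 ± 0.912 FPKM against 5.14 ± 0.348 FPKM in siMSI1 (SD, n = 3 each). The levels of WNT10B and WNT1 did not overlap in either group.

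WNT5B, a ligand mostly known for signaling without β-catenin, was at 2.64, 2.08 and 2.42 FPKM in the siC libraries and 1.47, 1.22 and 1.68 FPKM in the siMSI1 libraries. The groups did not overlap, with a log2 fold change of −0.68 (SE 0.16, adjusted p = 0.019) that missed the threshold. Its paralog WNT5A, at 1.14 to 1.30 FPKM in siC and 1.32 to 1.45 FPKM in siMSI1, lay slightly higher without overlap, with a log2 fold change of 0.16 (95% interval −0.17 to 0.49). The intervals of WNT5A and WNT5B (−1.04 to −0.31) did not overlap, and the difference between these paralogs itself was not tested. The other 7 ligands were under the filter. WNT3, WNT2B, WNT7B and WNT11 had 14 to 40 reads per library, and WNT2, WNT4 and WNT7A at most 2. When no filter was applied, WNT11 showed a log2 fold change of 0.45 (adjusted p = 0.31) and WNT7B of −0.40 (adjusted p = 0.46), and neither passed. PORCN, which attaches the lipid to Wnt proteins, was at 10.2, 9.68 and 9.28 FPKM in the siC libraries and 10.0, 9.86 and 11.3 FPKM in the siMSI1 libraries, with overlapping groups (log2 fold change 0.10, adjusted p = 0.43).

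Of the 34 tested genes, FZD5 showed the largest difference in mean FPKM. FZD5 (ENSG00000163251, chromosome 2 of GRCh38 from 207762598 to 207769906) was at 18.2, 17.9 and 16.2 FPKM in the siC libraries and 8.03, 8.61 and 8.58 FPKM in the siMSI1 libraries. The groups were far apart, and siMSI1 held 48.3% of the siC mean. Its log2 fold change was −1.04 (SE 0.074, adjusted p = 0.00025), with 1561 to 2174 reads in each siC and 757 to 827 in each siMSI1 library. It was called in each of 16 other fits, with adjusted p-values up to 0.0026.

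FZD1 (ENSG00000157240, chromosome 7 from 91264433 to 91271326) was at 19.4, 19.1 and 17.5 FPKM in the siC libraries and 12.5, 13.5 and 11.8 FPKM in the siMSI1 libraries. Again no siMSI1 library reached the lowest siC library. The log2 fold change was −0.57 (SE 0.078, adjusted p = 0.0022), and the adjusted p was just above 0.01 without siC replicate 1 (0.016), without siC replicate 2 (0.0102), without siMSI1 replicate 1 (0.011) and without trend and robust moderation of the variance (0.011).

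FZD7 was at 16.2 to 16.5 FPKM in the siC libraries and 15.9 to 17.6 FPKM in the siMSI1 libraries, with a log2 fold change of 0.06 (95% interval −0.10 to 0.21). FZD6 was at 10.5 to 12.6 FPKM in the siC libraries and 12.9 to 14.6 FPKM in the siMSI1 libraries, above siC in every library, with a log2 fold change of 0.28 (adjusted p = 0.055). FZD4, a receptor also used by the ligand Norrin, was at 1.01, 1.45 and 1.23 FPKM in the siC libraries and 0.781, 0.672 and 0.962 FPKM in the siMSI1 libraries, with a log2 fold change of −0.56 (SE 0.21, adjusted p = 0.096). FZD4 thus lay lower in siMSI1 without overlap and was not past the threshold. FZD2 and FZD3 overlapped between the groups, with log2 fold changes of −0.07 and −0.06 whose sign changed when single libraries were left out. FZD8 was near the filter, at 24 to 53 reads per library (log2 fold change 0.46, adjusted p = 0.35), and FZD10 had 0 reads in all 6 libraries.

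The order of the Frizzled genes differed between the groups. In siC, FZD1 (18.7 FPKM on average) and FZD5 (17.4) led, and their values overlapped each other, as did those of FZD5 and FZD7 (16.4). FZD6 (11.4), FZD3 (7.82) and FZD2 (5.55) followed without overlap between neighbours. In siMSI1, FZD7 (17.1) led without overlap, followed by FZD6 (13.9) and FZD1 (12.6), which overlapped, and by FZD5 (8.41) and FZD3 (7.49), which overlapped as well. Over the 10 human Frizzled genes, the summed level was 79.0 ± 3.69 FPKM in siC and 66.3 ± 2.07 FPKM in siMSI1 (SD, n = 3 each), without overlap. FZD5 made up 22.0% ± 0.593 of this sum in siC and 12.7% ± 0.471 in siMSI1, and FZD7 made up 20.8% ± 0.837 and 25.7% ± 1.34 (SD, n = 3 each).

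**Figure D2:**
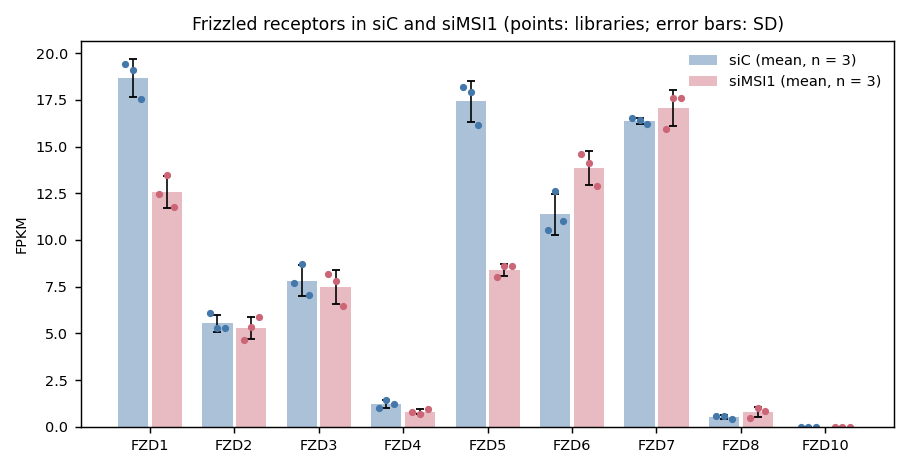
FPKM of the 9 Frizzled genes among the 47, with group means as bars, libraries as points and the SD as error bars (n = 3 each). FZD5 and FZD1 were lower in all siMSI1 libraries, and FZD7 stayed at 15.9 to 17.6 FPKM in siMSI1 beside 16.2 to 16.5 in siC.

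The co-receptors were low. LRP6 was at 3.14, 3.28 and 2.87 FPKM in the siC libraries and 3.73, 3.74 and 3.27 FPKM in the siMSI1 libraries, with overlapping groups (log2 fold change 0.20, adjusted p = 0.20), and LRP5 showed a log2 fold change of −0.12 (95% interval −0.49 to 0.25). Of the Dishevelled genes, which carry the signal from the receptor, DVL3 was the highest, at 43.6, 40.8 and 45.3 FPKM in the siC libraries and 42.2, 41.5 and 47.2 FPKM in the siMSI1 libraries. These groups overlapped, with a log2 fold change of 0.01 (95% interval −0.16 to 0.19). DVL1 was at 7.58, 6.26 and 7.93 FPKM in the siC libraries and 4.18, 5.20 and 5.66 FPKM in the siMSI1 libraries. The DVL1 groups did not overlap, but the log2 fold change of −0.53 (SE 0.14) was not past the threshold (adjusted p = 0.027). DVL2, at 22.9 to 30.2 FPKM, showed a log2 fold change of −0.10 with overlapping groups.

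CTNNB1, which encodes β-catenin, had the highest mRNA level of the 47 genes, above 96.9% of all tested genes in siC. It was at 91.8, 94.5 and 86.0 FPKM in the siC libraries and 99.0, 104 and 89.5 FPKM in the siMSI1 libraries. The groups overlapped, and the log2 fold change of 0.10 had a 95% interval from −0.08 to 0.28 (adjusted p = 0.37), so that a change of its mRNA by 2-fold lies outside this interval. The data hold no measure of β-catenin protein, through which the pathway is mainly controlled. The scaffolds AXIN1 (log2 fold change −0.19) and APC (0.19) and the kinase GSK3B (−0.31) did not pass the threshold, with adjusted p-values of 0.21, 0.29 and 0.059. GSK3B was at 8.53 to 10.5 FPKM in the siC libraries and 7.05 to 8.30 FPKM in the siMSI1 libraries, lower in every library.

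AXIN2, a scaffold that is also a widely used readout of β-catenin activity, is described here although the rule for named genes did not select it. It was at 1.49, 1.47 and 1.37 FPKM in the siC libraries and 2.25, 2.0 and 1.99 FPKM in the siMSI1 libraries. All siMSI1 values were above all siC values, with a log2 fold change of 0.49 (SE 0.12) and an adjusted p of 0.025, which missed the threshold. It was called in 1 of 16 other fits, voom on recovered reads with a replicate block.

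FRAT1 (ENSG00000165879, chromosome 10 from 97319271 to 97321915) was at 1.76, 1.42 and 1.60 FPKM in the siC libraries and 0.435, 0.634 and 0.815 FPKM in the siMSI1 libraries. Every siMSI1 library was below every siC library, and siMSI1 held 39.4% of the siC mean. The log2 fold change was −1.25 (SE 0.24, adjusted p = 0.0083), the largest among the 34 genes on this scale, from 61 to 70 reads in each siC and 17 to 31 in each siMSI1 library. The call was lost in 9 of 16 other fits, among them those without siC replicate 1 (adjusted p = 0.043), 2 (0.023) or 3 (0.031), without siMSI1 replicate 1 (0.018) or 2 (0.023), and with each library centred on its median (0.0102). With 1 FPKM added before the log in place of 0.1, the log2 fold change of FRAT1 was −0.68 and that of FZD5, then the larger, −0.97. FRAT2, which encodes a related protein, was at 5.04, 5.62 and 6.60 FPKM in the siC libraries and 4.45, 5.24 and 3.87 FPKM in the siMSI1 libraries. Its groups overlapped, with a log2 fold change of −0.34 (95% interval −0.67 to −0.02) that was not past the threshold (adjusted p = 0.11).

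Of the TCF/LEF factors, TCF7 (ENSG00000081059, chromosome 5 from 134114681 to 134151865) rose. It was at 9.47, 8.56 and 8.97 FPKM in the siC libraries and 12.9, 12.2 and 14.4 FPKM in the siMSI1 libraries. All siMSI1 libraries were above all siC libraries, with a log2 fold change of 0.54 (SE 0.084, adjusted p = 0.0037). The adjusted p was 0.015 without siC replicate 1, 2 or 3 and 0.014 without siMSI1 replicate 1, and the call was also lost with no filter on low genes (0.013) and without trend and robust moderation (0.014). SKP1 overlaps TCF7 on the opposite strand and showed a log2 fold change of −0.09 (adjusted p = 0.43). TCF7 made up 52.1% ± 0.346 of the summed TCF/LEF FPKM in siC and 64.1% ± 1.95 in siMSI1 (SD, n = 3 each). LEF1 was at 3.67 to 4.06 FPKM in siC and 3.71 to 4.11 FPKM in siMSI1, a log2 fold change of 0.00 (95% interval −0.21 to 0.21). TCF7L1, mostly known as a repressor, and TCF7L2 had values below siC in every siMSI1 library, with log2 fold changes of −0.39 (adjusted p = 0.13) and −0.29 (adjusted p = 0.11) that did not pass. The table gives 1 value per gene, so that forms of TCF7 with and without the β-catenin binding part were not told apart.

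**Figure D3:**
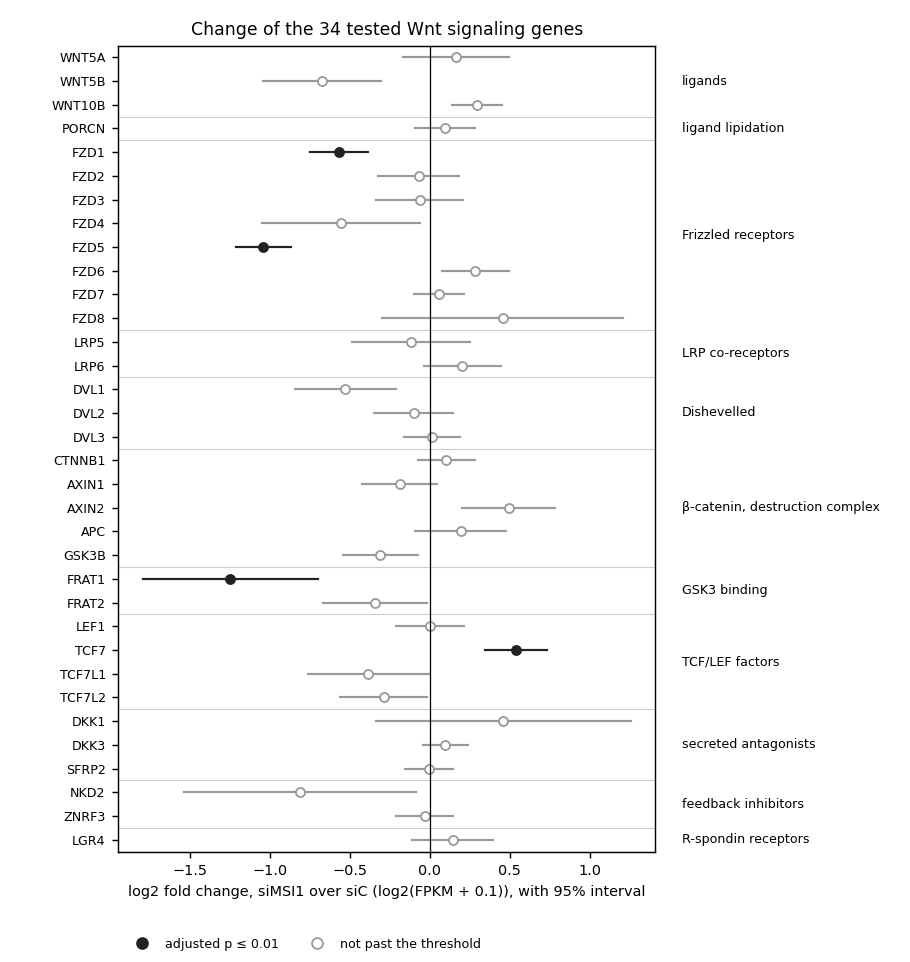
Log2 fold change (siMSI1 over siC) with the 95% interval of limma for the 34 tested genes, by role, with filled points for an adjusted p of at most 0.01. FZD5, FZD1 and FRAT1 lie left of 0 and TCF7 right of it as the 4 filled points.

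Among the secreted antagonists, SFRP2, which binds Wnt ligands, was at 45.7, 44 and 41.9 FPKM in the siC libraries and 42.1, 43.1 and 45.9 FPKM in the siMSI1 libraries. The groups overlapped and the log2 fold change was −0.01 (95% interval −0.16 to 0.15), with a sign that turned under median centring. DKK3, at 38.7 to 41.2 FPKM in siC and 41.9 to 44.4 FPKM in siMSI1, lay slightly higher without overlap, with a log2 fold change of 0.10 (adjusted p = 0.29). DKK1, which blocks LRP5 and LRP6, had 14 to 45 reads per library and a log2 fold change of 0.46 with a 95% interval from −0.34 to 1.26, so that a change was not resolved at this depth. SFRP1 had 0 to 9 reads.

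Of the feedback inhibitors, ZNRF3, a ubiquitin ligase that removes Frizzled receptors from the surface, was at 9.52, 8.89 and 9.18 FPKM in the siC libraries and 9.58, 8.37 and 9.06 FPKM in the siMSI1 libraries. These groups overlapped (log2 fold change −0.03, 95% interval −0.21 to 0.15). Its partner RNF43 had 1 to 3 reads per library. NKD2, which binds Dishevelled, was at 0.625, 0.651 and 0.723 FPKM in the siC libraries and 0.353, 0.370 and 0.290 FPKM in the siMSI1 libraries. NKD2 was below siC in every siMSI1 library, on 27 to 34 reads per siC library and 12 to 15 per siMSI1 library, and its log2 fold change of −0.81 (SE 0.31) did not pass (adjusted p = 0.097), but was called without trend and robust moderation (0.0066). NKD1 had 39 to 79 reads and was under the filter. LGR4, a receptor for R-spondins, was at 5.64, 5.73 and 4.96 FPKM in the siC libraries and 6.33, 6.52 and 5.26 FPKM in the siMSI1 libraries, with overlapping groups (log2 fold change 0.14, adjusted p = 0.38). LGR5 had at most 1 read. SP5, a transcription factor whose window above holds 3 TCF/LEF matches, had 0 reads in all libraries, where a floor of 3 reads stands for 0.0829 to 0.114 FPKM in a gene of 2 kb (counting error only). In all, 7 of the 47 genes had at most 3 reads in every library.

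A second list of 72 Wnt pathway genes outside the 47, chosen with earlier results of these data known, held more calls. Of these, 48 were tested and 15 (31.25%) were called, 8 lower and 7 higher, where 11.0% of all tested genes and 13.1% of the protein-coding genes were called. Their median log2 fold change was −0.08, and no test of the list was run. The count was 6 to 9 without siC replicate 1, 2 or 3 or siMSI1 replicate 1 or 2 (6, 8, 9, 8 and 7), and 13 without siMSI1 replicate 3.

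Of 3 tested receptors of this list 2 rose. A group of kinases, destruction-complex genes and their ligases, which also held DACT and CXXC genes, had 16 tested genes, of which 3 rose. None of these 19 passed the threshold as lower, where 5.83% of all tested genes were called lower and 5.15% higher. Of the 19, 8 were below 0, among them the receptor RYK, which lay lower without overlap (log2 fold change −0.38, adjusted p = 0.014). LGR6, a receptor for R-spondins, was at 1.49, 1.34 and 1.59 FPKM in the siC libraries and 5.30, 3.88 and 5.35 FPKM in the siMSI1 libraries (log2 fold change 1.64, standard error 0.15, adjusted p = 0.00052). PTK7, a co-receptor linked to planar cell polarity, was at 3.62, 3.31 and 3.98 FPKM in the siC libraries and 6.45, 6.94 and 8.40 FPKM in the siMSI1 libraries (log2 fold change 0.97, adjusted p = 0.0015). For both genes every siMSI1 library was above every siC library, and the R-spondins RSPO1 to RSPO4 themselves had at most 1 read. CXXC5, which binds Dishevelled and restrains the pathway, rose from 4.80 ± 0.264 to 10.5 ± 0.713 FPKM (log2 fold change 1.11, adjusted p = 0.00030). AMER1, a partner of APC and AXIN, rose from 0.64 ± 0.026 to 1.40 ± 0.0534 FPKM (log2 fold change 1.02, adjusted p = 0.0049), a call that was lost in each fit without 1 library (adjusted p from 0.015 to 0.023). APC2, the neural paralog of APC, rose from 11.6 ± 0.906 to 21.1 ± 1.40 FPKM (log2 fold change 0.86, adjusted p = 0.00058, with SD over n = 3 for these 3 genes). The antisense gene AC027307.2 overlaps APC2 and fell, by 1.10 on the log2 scale (adjusted p = 0.0016). The strand setting of the counting is not given in the sources used here, although the libraries were strand-specific per the labels.

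Of 10 tested genes grouped as planar cell polarity, 3 fell, 0 rose and 7 were not past the threshold, and 9 of the 10 were below 0. Of all tested genes, 5.83% were called lower, and their median was 0.00. The count depends on the grouping, since PTK7, also linked to planar cell polarity but counted above with the receptors, rose (log2 fold change 0.97, adjusted p = 0.0015). VANGL2, a core membrane protein of this branch, was at 25.7, 23.1 and 22.6 FPKM in the siC libraries and 13.7, 13.3 and 13.5 FPKM in the siMSI1 libraries (log2 fold change −0.81, standard error 0.071, adjusted p = 0.00048). DAAM1, a formin that binds Dishevelled, was at 4.66, 5.22 and 4.06 FPKM in the siC libraries and 2.82, 2.54 and 2.22 FPKM in the siMSI1 libraries (log2 fold change −0.85, adjusted p = 0.0037). Neither gene overlapped between the groups. The VANGL2 call held in all 16 other fits, and that of DAAM1 was lost in 5 of the 16, without siC replicate 1 (adjusted p = 0.020), siC replicate 2 (0.014) or siMSI1 replicate 2 (0.014), with no filter (0.014) and without trend and robust moderation (0.011). The third, CELSR2, showed a log2 fold change of −0.51 (adjusted p = 0.0076), and VANGL1, the paralog of VANGL2, of 0.27 (adjusted p = 0.037). CELSR2 lost its call in 9 of 16 other fits, namely 5 of the 6 without 1 library (adjusted p up to 0.040), both other scalings (0.011 each), no filter (0.022) and no trend and robust moderation (0.017).

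Of 13 tested nuclear partners, 4 fell and 2 rose, where 5.83% of all tested genes were called lower and 5.15% higher. CTNNBIP1 (ICAT), which keeps β-catenin from TCF factors, was at 7.50, 6.47 and 7.99 FPKM in the siC libraries and 4.02, 4.09 and 5.28 FPKM in the siMSI1 libraries (log2 fold change −0.71, adjusted p = 0.0075). Its groups did not overlap, and the call was lost in 9 of 16 other fits. The remaining calls of this list, named like CELSR2 and VANGL1 after their values were seen, were SFRP4 (log2 fold change −0.62, an antagonist related to SFRP2), PYGO2 (−0.52) and BCL9L (0.56), which are coactivators of β-catenin, and the corepressors TLE1 (−0.65), TLE4 (−0.42) and TLE3 (0.49). The SFRP4 call held in all 16 other fits and that of TLE1 was lost without siC replicate 1 (adjusted p = 0.011). In the 6 fits without 1 library, BCL9L was called in 1, PYGO2 and TLE4 in 2 each, and TLE3 in 0. EPDR1 overlaps SFRP4 on the opposite strand and showed a log2 fold change of −0.29 (adjusted p = 0.011). PYGO2 is overlapped by the antisense gene AL451085.2 (log2 fold change 0.65, adjusted p = 0.016) and, on the same strand, by SHC1 (0.23, adjusted p = 0.11).

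**Figure D4:**
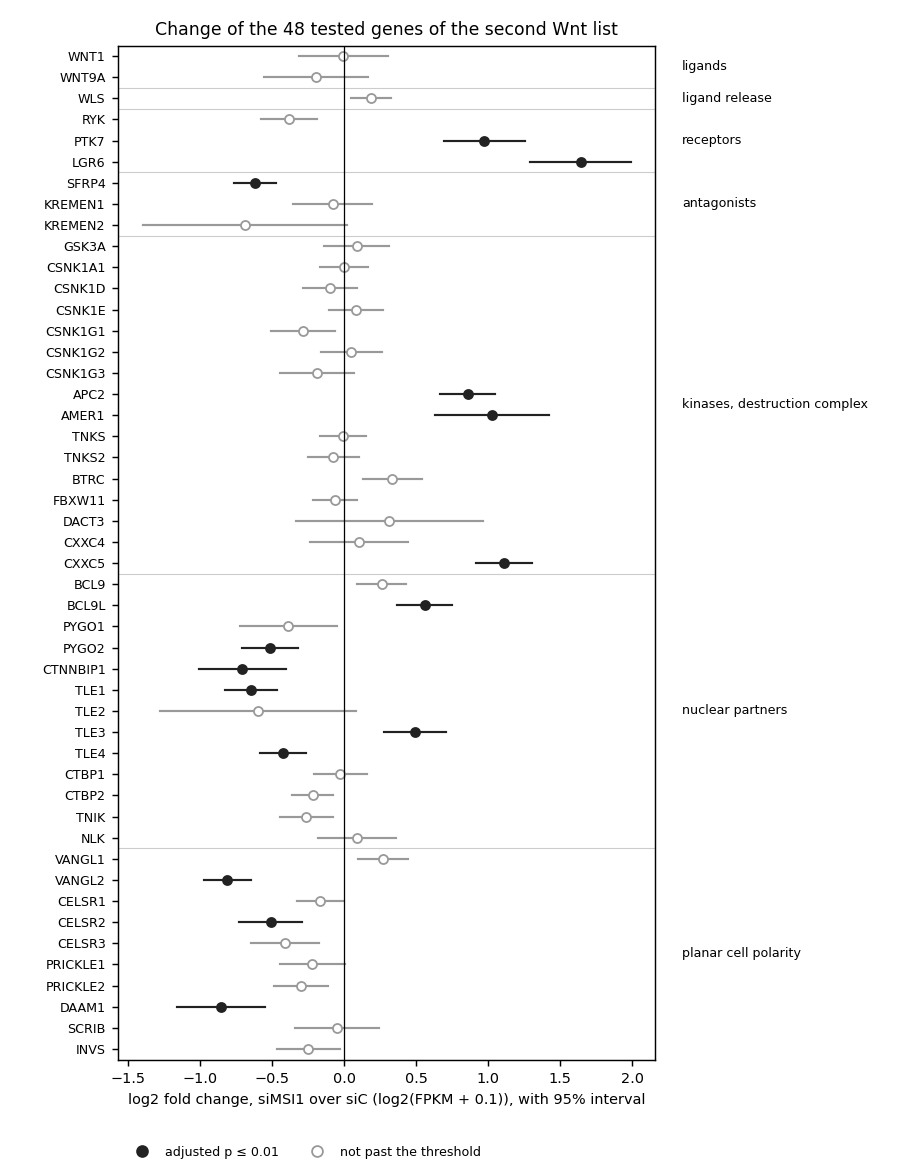
Log2 fold change (siMSI1 over siC) with the 95% interval of limma for the 48 tested genes of the second list, by role, with filled points for an adjusted p of at most 0.01. LGR6 (1.64) and CXXC5 (1.11) lie farthest right and DAAM1 (−0.85) and VANGL2 (−0.81) farthest left of the called genes.

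A list of 29 genes known as targets of β-catenin in other cells, 9 of them among the 47 Wnt genes, was likewise chosen with earlier results known. It held 19 tested genes, of which 5 (26.3%, beside 11.0% of all tested genes) were called, 1 lower and 4 higher. At an adjusted p of 0.05, 4 were lower and 5 higher. Of the 19, 10 were below 0. The groups did not overlap for 5 lower and 5 higher genes (52.6%, beside 42.8% of all tested genes). PPARD fell and just missed the threshold (log2 fold change −0.39, adjusted p = 0.0105). The median log2 fold change was −0.03, and no test of the list was run. FOSL1, a subunit of AP-1, was at 11.5, 10.9 and 13.1 FPKM in the siC libraries and 37.9, 32.8 and 36.4 FPKM in the siMSI1 libraries (log2 fold change 1.59, adjusted p = 0.00021). EDN1 was at 5.09, 5.74 and 4.62 FPKM in the siC libraries and 9.04, 9.46 and 7.36 FPKM in the siMSI1 libraries (log2 fold change 0.73, adjusted p = 0.0050). For both genes every siMSI1 library was above every siC library. FOSL1 was called in all 16 other fits and EDN1 in 10, of which 2 were among the 6 without 1 library (adjusted p up to 0.024). TWIST1 (log2 fold change 0.46, adjusted p = 0.0065) and TCF7 were the others that rose, and CD44, a gene the study itself followed up from these samples, fell (log2 fold change −0.46, adjusted p = 0.0030). TWIST1 and CD44 were each called in 1 of the 6 fits without 1 library, with adjusted p-values up to 0.034 and 0.023. AXIN2 was not past the threshold, CCND1 (22 to 29 reads per library), NKD1 and NOTUM were under the filter, and SP5 and LGR5 had at most 1 read. Without 1 library, the count of calls in this list was 1 without siC replicate 1 or siMSI1 replicate 1, 2 without siC replicate 2, siC replicate 3 or siMSI1 replicate 2, and 5 without siMSI1 replicate 3. All of these genes are also regulated by other pathways, and the part of β-catenin in their levels was not tested.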

How the data were processed

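PolyA(+) RNA of 3 siC and 3 siMSI1 libraries was sequenced strand-specifically, per the labels. The submitters' processing notes name cutadapt 1.14, HISAT2 2.1.0, SAMtools 1.5, featureCounts 1.5.3 and edgeR 3.18.1. The values deposited by the authors are FPKM per gene, with gene lengths, beside the log2 fold changes and p-values of the authors' own edgeR comparison, which were not used here. Multiplied by length and by a factor per library, 100% of them gave whole reads (within 0.01 read), which give the depths in the report. Since the deposited unit is FPKM, the main test was made on the log scale, the recovered reads were tested with voom as an alternative, and the edgeR test of the study was not run.

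Using limma 3.58.1 in R 4.3.3, log2(FPKM + 0.1) was compared between groups by moderated, two-sided tests (eBayes with trend and robust), for genes with a mean of at least 0.5 FPKM. p-values were Benjamini-Hochberg adjusted over 15069 genes, and a gene was called at an adjusted p of at most 0.01. Groups were taken from the labels. The 47 genes, the further lists (72 pathway genes, 29 β-catenin targets, markers) and the tests were chosen with earlier results of these data known, and lists are described by counts and medians only. Among the 47 genes, all 6 values are given for called genes, for the highest gene in each role and for genes with an absolute log2 fold change of at least 0.5. Of the other lists, the 8 largest calls were to be named. Coordinates are those of GENCODE release 44 (GRCh38), which held 57392 of the gene identifiers (98.7%). Upstream windows of 250 bases were taken from RefSeq. The fits were tested on simulated data. Alternatives were other added values (0.01 and 1 FPKM), filters, scalings, thresholds and variance moderation, voom on the recovered reads, a replicate block, and leaving out each library.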

Additional observations from a re-analysis of the deposited data

How the results depend on the processing

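Of 606 values of single Wnt genes over 18 alternative settings, 2 of which change only the threshold, 559 kept their direction and side of the threshold, 21 lost and 14 gained a call, and 12 changed sign, all in 6 genes that were not called. Calls over all genes, the 47 Wnt genes, the 72 pathway genes and the 29 targets were 792, 2, 9 and 2 with no filter on low genes, 847, 2, 9 and 1 without trend and robust moderation (where FZD5 and NKD2 are the 2 Wnt genes), 3787, 8, 23 and 9 at an adjusted p of 0.05, and 294, 2, 3 and 1 when a 2-fold change was also required. Leaving out 1 library in turn gave 517 to 1603, 1 to 4, 6 to 13 and 1 to 5 calls, and a median of the Wnt genes from −0.0392 to 0.0127. Fewer libraries enter those fits. voom on recovered reads called 2684 genes and 6 Wnt genes, adding WNT5B and DVL1. The cause of the other differences was not tested.

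The sources used here do not say whether the replicate numbers pair the libraries. Correlations of the deviations of same-numbered libraries were weak (−0.0661, 0.0783 and 0.083). siC replicate 1 correlated best with siMSI1 replicate 3, while siC replicates 2 and 3 each correlated best with the siMSI1 library of the same number, so pairing was not settled. With a replicate block, 2250 genes, 3 Wnt genes (without FRAT1), 14 pathway genes and 6 targets were called, and voom with the replicate block called 4634, 11, 26 and 8.

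SFRP2 had a log2 fold change of 0.0066 with each library centred on its median. Without 1 library, log2 fold changes spanned −0.1474 to 0.0162 for FZD2, −0.1346 to 0.0389 for FZD3, −0.0463 to 0.0472 for DVL3, −0.0408 to 0.0343 for LEF1, −0.0416 to 0.0238 for SFRP2 and −0.0763 to 0.0197 for ZNRF3. The 13 untested Wnt genes had at most 79 reads in a library, and DKK1, FZD8 and NKD2 had 12 to 53.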

Other observations

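Some of the Wnt genes lie next to a related gene. WNT10B and WNT1 are 6586 bases apart on chromosome 12 of GRCh38, on opposite strands, and were the 2 highest of the 19 WNT genes in both groups, with log2 fold changes of 0.30 (adjusted p = 0.017 by limma) and −0.01 (adjusted p = 0.98), neither past the threshold. FRAT1 and FRAT2 are 10581 bases apart on chromosome 10, also on opposite strands, with log2 fold changes of −1.25 (called) and −0.34 (not called).

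The secreted antagonists SFRP2 and SFRP4 were both abundant. SFRP4 fell from 52.9 ± 0.864 to 34.4 ± 1.72 FPKM while SFRP2 was at 43.9 ± 1.86 and 43.7 ± 1.97 FPKM (SD, n = 3 each), so that SFRP2 made up 45.3% ± 0.678 of the summed SFRP level in siC and 55.9% ± 2.02 in siMSI1. No test of these shares was run.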
